A study of Mus musculus with 4 samples.

Results

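The plasma membrane and lysosomal carriers that move amino acids were described in naive microglia, which are macrophages that live in brain tissue. The members were all gene rows whose symbol begins with Slc1a, Slc3a, Slc6a, Slc7a, Slc36a or Slc38a followed by a number, which gave 64 of 56832 rows. They hold 60 transporter or subunit genes and 4 rows named for the opposite strand of a member. The rule used symbols only, but it was chosen with earlier results of these data known. The libraries, replicates 1 to 4 of 1 group, came from CD45 low to intermediate, CD11b-positive cells sorted from the brains of female C57BL/6 mice labelled as having had no intervention. The labels give neither the age of the mice nor the number of animals behind the libraries, and the spread between libraries may therefore be technical in part. Graft-derived cells of the same study were not analysed here, and no test between groups was made.

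Amino acid carriers are grouped by sequence into solute carrier families. Slc1 proteins take up glutamate or exchange small neutral amino acids, Slc6 proteins carry neurotransmitters, taurine, creatine or neutral amino acids with sodium, and Slc36 and Slc38 proteins move small neutral amino acids and glutamine, some of them across the lysosomal membrane. Most Slc7 proteins are light subunits that reach the cell surface only when bound to a heavy subunit, Slc3a1 or Slc3a2. In the brain, glutamate uptake is best known from astrocytes and the uptake of GABA, glycine and monoamines from neurons and astrocytes, while macrophages are known for exchangers of cystine, arginine and large neutral amino acids.

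The libraries held 20360121 to 23292655 reads assigned to genes. Levels are given as CPM, the reads of a gene per 1000000 assigned reads of that library, and a count of 0 allows up to 3 counts, which is 0.129 to 0.147 CPM. Intervals of this kind cover counting error only, because amplified reads are not independent molecules. All 10 microglia markers, such as Tmem119 and P2ry12, were at least at 10 CPM in each of the 4 libraries, and their summed level was 60054, 32828, 32805 and 61966 CPM in replicates 1 to 4. Markers of other cells were present at lower levels. The astrocyte list of 12 genes summed to 160, 248, 299 and 287 CPM, the neuron list of 11 genes to 14.4, 20.8, 39.3 and 21.4 CPM and the endothelial list of 12 genes to 112, 216, 198 and 123 CPM. The oligodendrocyte list of 10 genes summed to 533, 1925, 1968 and 670 CPM and the border macrophage list of 8 genes to 294, 794, 862 and 441 CPM, both higher in replicates 2 and 3. The neutrophil list of 10 genes, at 1533, 311, 294 and 2430 CPM, was higher in replicates 1 and 4, and the ependymal and choroid plexus list of 8 genes, at 454, 913, 916 and 2064 CPM, was highest in replicate 4. Immediate early genes, which respond to stimuli within minutes, had sums over 10 genes of 4583, 52938, 46327 and 4953 CPM. In such bulk libraries, fewer cells of a type and less RNA per cell cannot be told apart.

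A small part of the families made up most of their transcripts. Of the 64 members, 17 (26.6%) reached 1 CPM in every library, against 14.8% of all gene rows and 35.5% of the rows annotated as protein-coding. Over the 61 protein-coding members alone the share was 27.9%. The 10 CPM level was reached in every library by 15 members, or 23.4%, against 10.1% of all rows and 26.1% of protein-coding rows. Of the 64, 25 had no count in any library, 26 had a count in every library and 13 had one in some libraries only. A count in any library was thus found for 60.9% of members, against 38.1% of all rows and 66% of protein-coding rows. The median over all 64 member rows was 1.21 CPM, against 0 over all gene rows. Those 64 include 3 opposite-strand rows that are not protein-coding and had no count. The median over protein-coding genes, 1.59 CPM, is over an unlike set, so its order against the members is not read here. All members together took 2068, 2427, 2047 and 1598 CPM, and the 5 highest, Slc3a2, Slc7a8, Slc1a3, Slc7a7 and Slc6a6, held 67.5% ± 4.86 (SD, n = 4) of that sum.

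**Figure D1:**
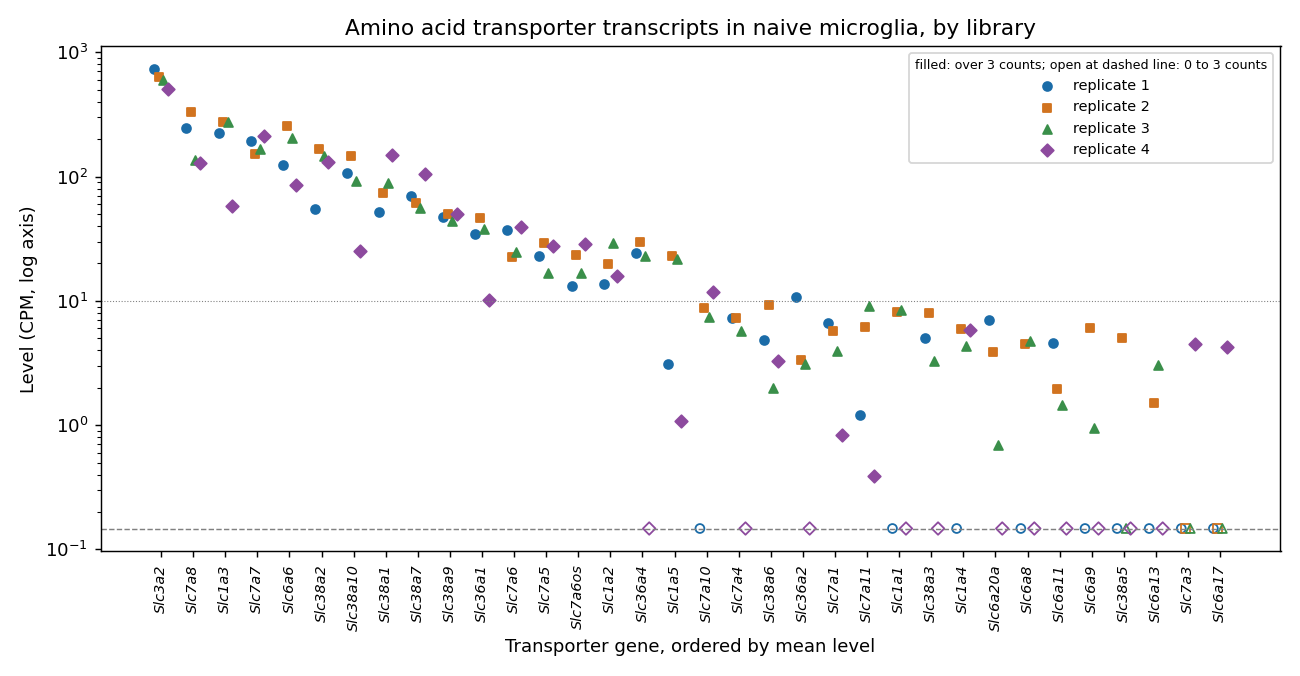
Level in CPM, on a log axis, of the members with a mean of 1 CPM or more, 1 of them left out, in each of 4 naive microglia libraries. Filled points have over 3 counts, and open points on the dashed line have 0 to 3 counts. Slc3a2 stood highest in every library, and from Slc36a4 downwards points at 0 to 3 counts become common, mainly in replicates 1 and 4.

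Slc3a2, the heavy subunit also known as CD98, was the most abundant member. It gave 734, 633, 597 and 502 CPM in replicates 1 to 4, a mean of 616 ± 95.9 CPM (SD, n = 4). The libraries lay close together, and the coefficient of variation (CV, the SD as a share of the mean) of 15.6% was above that of 8.75% of the 8175 genes with a mean of 10 CPM or more. The CV falls with level, and against the trend for genes of its own level, in the edgeR fit described further on, the spread of Slc3a2 was less exceptional, with 33.7% of 9075 genes lower. Slc3a1, the heavy subunit of kidney and intestine, had no count in any library. Transcript length affects CPM, so genes were set against each other per kb of exon. On that scale Slc3a2 stood at 175 ± 27.2 CPM per kb, and its lowest library, at 142, was above the highest library of any other member, 65.4 for Slc7a8.

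The light subunits were dominated by Slc7a7 and Slc7a8. Slc7a7, which exchanges cationic for neutral amino acids and is mutated in lysinuric protein intolerance, gave 194, 152, 166 and 212 CPM in replicates 1 to 4. Its CV of 14.8% was above that of 7.79% of genes at 10 CPM, and 7.27% of genes were lower relative to the trend with level. Slc7a8, an exchanger of neutral amino acids, gave 245, 328, 136 and 128 CPM, with replicates 1 and 2 above replicates 3 and 4. Slc7a6, a relative of Slc7a7 with a like substrate range, gave 36.98, 22.7, 24.7 and 38.9 CPM. Slc7a5, the large neutral amino acid exchanger known from the blood-brain barrier and from dividing cells, gave 22.9, 29.0, 16.8 and 27.8 CPM. The endothelial list summed to 112, 216, 198 and 123 CPM in the same libraries, and its part in the Slc7a5 level was not tested.

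The remaining light subunits were scarce or uneven. Slc7a10, which exchanges small neutral amino acids including serine, had 1 count in replicate 1 and 8.68, 7.38 and 11.8 CPM in replicates 2 to 4. Slc7a11, which imports cystine in exchange for glutamate and so feeds glutathione synthesis, gave 1.21, 6.16, 9.10 and 0.393 CPM, or 25, 139, 212 and 8 counts. Replicates 2 and 3 were higher than replicates 1 and 4 for Slc7a11. The oligodendrocyte, border macrophage, endothelial and immediate early sums given above had the same order, and whether the differences are linked was not tested. Slc7a13 had 19 counts in replicate 3 and none elsewhere, and Slc7a9 and Slc7a12 had no count.

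Per kb of exon, Slc3a2 exceeded the sum of the 6 light subunits that are known to pair with it (Slc7a5, Slc7a6, Slc7a7, Slc7a8, Slc7a10 and Slc7a11) in 4 of 4 libraries. The log2 difference was 0.77, 0.48, 0.89 and 0.36 in replicates 1 to 4, a mean of 0.62 ± 0.25 (SD, n = 4) or 1.54-fold. This comparison was added after the data were seen and carries no test. Within the light subunit sum, Slc7a7 took 49.0% ± 9.74 and Slc7a8 35.9% ± 12.2, together 85.0% ± 3.32 (SD, n = 4). Slc7a6 and Slc7a5 took 6.02% ± 1.61 and 5.71% ± 0.860, Slc7a10 3.02% ± 2.14 and Slc7a11 0.289% ± 0.317. The shares of the leading pair depended on the library, because Slc7a7 was the larger in replicates 1, 3 and 4 and Slc7a8 in replicate 2, at 35.7% and 50.8%.

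**Figure D2:**
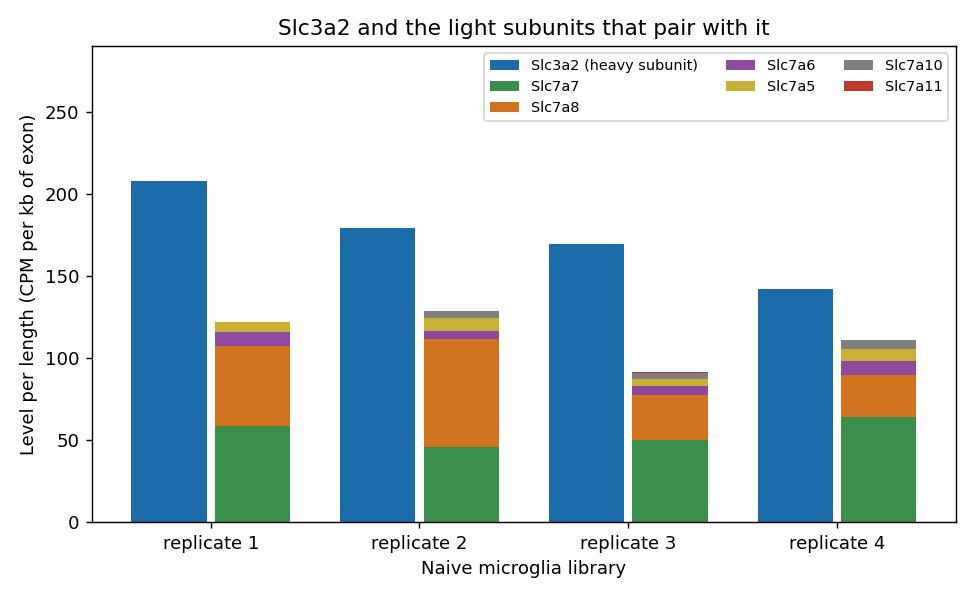
Level per length, in CPM per kb of exon, of the heavy subunit Slc3a2 (left bar) and of 6 light subunits stacked (right bar) in each of 4 libraries. The left bar is the taller in 4 of 4 libraries, and Slc7a7 and Slc7a8 fill most of each right bar.

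Of the glutamate transporters, Slc1a3 and Slc1a2 were detected in every library. Slc1a3, the carrier known as GLAST, gave 222, 272, 276 and 57.5 CPM in replicates 1 to 4, a mean of 207 ± 103 CPM (SD, n = 4). Replicates 1 to 3 lay close together and replicate 4 was lower by a wide margin. Slc1a2, known as GLT-1 and the main glutamate carrier of astrocytes, gave 13.7, 19.7, 29.1 and 15.9 CPM, with no such low value in replicate 4. Per kb of exon the log2 ratio of Slc1a3 to Slc1a2 was 4.63, 4.41, 3.87 and 2.48, a mean of 3.85 ± 0.97 (SD, n = 4), and it was 4.70 with the length of the longest annotated transcript and 3.23 with no length correction. Slc1a1, known as a neuronal glutamate carrier, had 184 and 196 counts in replicates 2 and 3, at 8.15 and 8.41 CPM, and none in replicates 1 and 4. Slc1a6 and Slc1a7 had no count.

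Slc1a3 is also an astrocyte transcript, so its values were set beside astrocyte markers that are not members. Of the 12, 8 reached 1 CPM in every library. The gap junction gene Gja1 gave 41.8, 38.1, 42.1 and 72.5 CPM and the water channel gene Aqp4 gave 11.4, 5.45, 8.63 and 19.1 CPM, both highest in replicate 4. Aldoc gave 26.5, 78.5, 136 and 75.1 CPM, Atp1b2 gave 42.6, 57.1, 53.8 and 3.39 CPM, lowest in replicate 4 as Slc1a3 was, S100b likewise had 115, 188, 181 and 1 counts, and Gfap, at 15.5 and 10.9 CPM in replicates 2 and 3, had 1 count in each of replicates 1 and 4. The summed astrocyte level in replicate 4, 287 CPM, was within the range of the other libraries, whereas Slc1a3 was lowest there. Slc1a3 alone was above the summed level of the 12 markers in replicates 1 and 2 and below it in replicates 3 and 4. How much of the Slc1a3 level came from microglia and how much from astrocyte RNA was not tested.

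**Figure D3:**
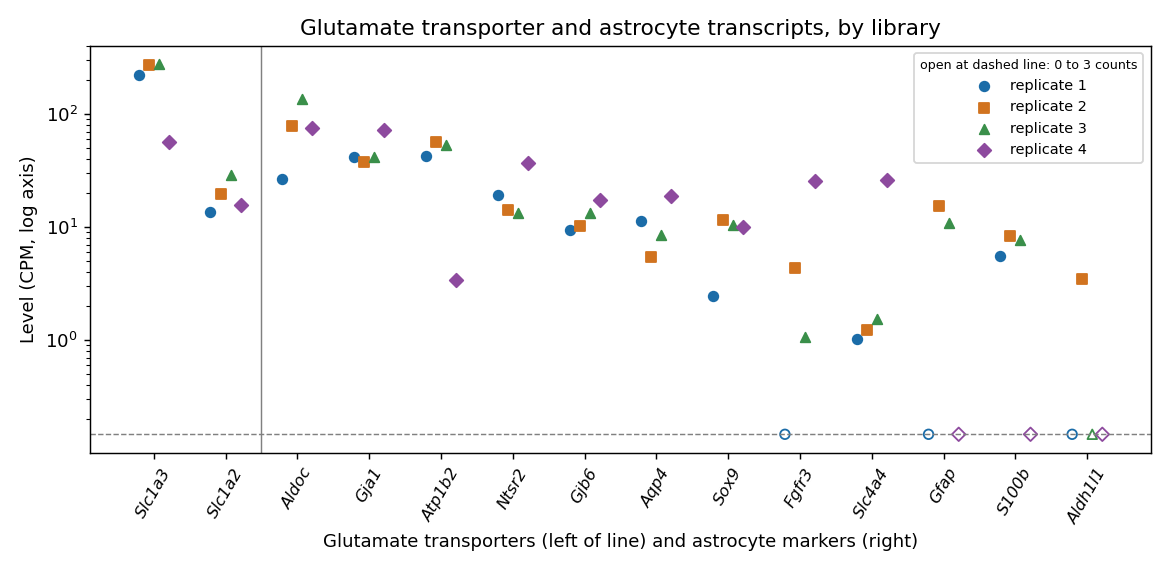
Level in CPM, on a log axis, of Slc1a3 and Slc1a2 (left of the line) and of 12 astrocyte markers (right of the line) in 4 libraries. Open points on the dashed line have 0 to 3 counts. Slc1a3 is lowest in replicate 4, as are Atp1b2 and S100b, whereas Gja1, Ntsr2, Gjb6, Aqp4, Fgfr3 and Slc4a4 are highest there.

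The neutral exchangers of the Slc1 family were less even. Slc1a5, the glutamine exchanger ASCT2, gave 3.11, 22.8, 21.6 and 1.08 CPM in replicates 1 to 4. The highest library was 21.1-fold above the lowest, and replicates 2 and 3 again lay above replicates 1 and 4. Slc1a4, an exchanger of alanine, serine and cysteine, had 1 count in replicate 1 and 5.98, 4.29 and 5.84 CPM in replicates 2 to 4. The order of the pair was therefore not the same in all libraries, with Slc1a5 the higher per kb in 3 of 4.

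Among Slc6 genes the taurine carrier Slc6a6 stood alone at a high level. It gave 124, 255, 205 and 85.0 CPM, a mean of 167 ± 77.0 CPM (SD, n = 4), with replicates 2 and 3 higher than replicates 1 and 4. The oligodendrocyte, border macrophage, endothelial and immediate early sums had the same order, and a link was not tested. The creatine carrier Slc6a8 had 0, 101, 110 and 1 counts, which was 4.47 and 4.72 CPM in replicates 2 and 3. Of the 9 carriers of neurotransmitters, none reached 1 CPM in every library, against 35.5% of protein-coding rows. A count in any library was found for 4 of the 9, against 66% of protein-coding rows. The 5 with no count were the noradrenaline, dopamine and serotonin carriers Slc6a2, Slc6a3 and Slc6a4, the glycine carrier Slc6a5 and the betaine and GABA carrier Slc6a12. The GABA carrier Slc6a11 gave 4.56, 1.95 and 1.46 CPM in replicates 1 to 3 and 1 count in replicate 4. The glycine carrier Slc6a9 gave 6.07 and 0.945 CPM in replicates 2 and 3 and no count in the others, and Slc6a13 gave 1.51 and 3.05 CPM there and no count in the others. The neuron list, in which 1 of 11 genes reached 1 CPM in every library, had its highest sum in replicate 3. Slc6a13 was highest there too, whereas Slc6a9 was highest in replicate 2 and Slc6a11 in replicate 1. Whether the levels are linked was not tested.

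Of the other 10 Slc6 members, 6 had no count and 4 had one in some library, against 66% of protein-coding rows. None of the 10 reached 1 CPM in every library, against 35.5%. Slc6a20a gave 7.04, 3.85, 0.687 CPM and 1 count, and its near copy Slc6a20b gave 1 to 5 counts, a split that is uncertain because reads shared by both may be dropped or divided. Slc6a17 had 86 counts in replicate 4 and none in the others, and Slc6a21 had 49 counts in replicate 3 and none in the others.

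The other 6 Slc7 members include the cationic amino acid carriers, which work without a heavy subunit, and among the 6 only Slc7a1, a carrier of arginine and lysine, had over 3 counts in 4 of 4 libraries, at 6.60, 5.67, 3.95 and 0.835 CPM. Slc7a2, the carrier of arginine that macrophages are known to induce on activation, had 49 counts in replicate 3, 1 in replicate 4 and none in replicates 1 and 2. Slc7a3 had 91 counts in replicate 4 and none elsewhere. Slc7a4 gave 7.33, 7.26 and 5.67 CPM and 1 count in replicate 4. Slc7a14 and Slc7a15 had no count.

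The Slc38 family, carriers of glutamine and small neutral amino acids, had 5 of its 11 members at the 10 CPM level throughout, and the Slc7 light subunits had 4 of 9. Of all protein-coding rows, 26.1% were at that level in every library. Slc38a2, the carrier that cells are known to induce when amino acids run short, gave 54.9, 167, 146 and 131.0 CPM, with replicate 1 the lowest. Slc38a1, another sodium-coupled glutamine carrier, gave 52.0, 74.2, 88.0 and 149 CPM, with replicate 4 the highest. Slc38a10 gave 106, 147, 92.0 and 25.3 CPM, with replicate 4 the lowest. Slc38a7, reported as a lysosomal glutamine exporter, gave 69.1, 60.8, 56.0 and 104.96 CPM.

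Slc38a9, the lysosomal arginine sensor of the mTORC1 kinase complex, was the steadiest of the 17 members with a mean of 10 CPM or above. It gave 47.7, 50.1, 43.8 and 50.3 CPM, a mean of 48.0 ± 3.01 CPM (SD, n = 4). Its CV of 6.27% was above that of 0.685% of the 8175 genes with such a mean, and 0.408% of genes were lower relative to the trend with level. Slc38a6 gave 4.85, 9.21, 1.97 and 3.29 CPM, and Slc38a3, a carrier of glutamine known from astrocytes, gave 5.05, 7.97 and 3.31 CPM and no count in replicate 4. Slc38a5 had 113 counts in replicate 2, 3 in replicate 4 and none in the others, and Slc38a4, Slc38a8 and Slc38a11 had no count.

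In the Slc36 family of proton-coupled carriers, Slc36a1, which exports amino acids from lysosomes, gave 34.6, 46.5, 37.7 and 10.1 CPM. Slc36a4 gave 24.3, 29.6 and 22.8 CPM in replicates 1 to 3 and no count in replicate 4, where a count of 0 allows up to 0.147 CPM. Slc36a2 likewise gave 10.8, 3.37 and 3.09 CPM and no count in replicate 4, and Slc36a3 had no count anywhere. Of the 4 rows named for an opposite strand, Slc7a6os gave 13.1, 23.2, 16.9 and 28.9 CPM and the others had no count. Slc7a6os adjoins Slc7a6 in the annotation, and as the strand setting of the counting is not given in the sources used here, reads of the pair cannot be fully told apart.

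Several members lie side by side in the genome, by gene order in RefSeq for GRCm38.p6, and neighbours could differ in level or both be without a count. Slc38a1, Slc38a2 and Slc38a4 follow each other on chromosome 15 and had means of 90.7, 125 and 0 CPM. The chromosome 11 group of Slc36a3, Slc36a2 and Slc36a1 had means of 0, 4.31 and 32.2 CPM. Slc6a13 and Slc6a12 on chromosome 6 had means of 1.14 and 0 CPM, and Slc6a18 and Slc6a19 on chromosome 13 were both at 0.

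Related members were compared within each library in 12 pairs, as log2 ratios of counts with 0.5 added, per kb of exon. The first gene named was the higher in 4 of 4 libraries for 7 pairs and the lower for 3, and 2 pairs were mixed. In 4 pairs a gene had 3 counts or fewer in some library, and no fold is given for Slc1a5 with Slc1a4, Slc7a1 with Slc7a2, Slc6a6 with Slc6a8 or Slc36a1 with Slc36a4. Slc3a2 exceeded Slc7a5 by 4.76 ± 0.46, and Slc7a7 exceeded Slc7a6 by 3.04 ± 0.19 (SD, n = 4). Slc7a5 over Slc7a8 was -2.60 ± 0.60 and Slc7a11 over Slc7a5 was -5.25 ± 2.27, the latter -4.35 without replicate 4, -6.08 without replicate 3 and -3.35 with no length correction. Slc38a2 exceeded Slc38a1 by 1.41 ± 0.62, or by 0.45 with no length correction. With no length correction the order was reversed in replicate 4, at 2668 against 3028 counts. Slc38a9 over Slc38a7 was -2.57 ± 0.35, or -0.56 with no length correction, the exon unions being 16704 and 4144 bases. Slc7a8 over Slc7a7 was -0.26, 0.51, -0.88 and -1.33 in replicates 1 to 4 and 0.11 on average with no length correction, so the order of these 2 genes was not settled. A two-sided exact permutation test that flips the sign of each library's ratio has 16 patterns with 4 libraries and cannot go below p = 0.13. It gave that smallest value, adjusted p = 0.15, for the 10 pairs of 1 order.

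Per kb of exon the members in order were Slc3a2, Slc7a7, Slc7a8, Slc1a3, Slc6a6, Slc38a7, Slc38a10 and Slc38a2. Their means were 175 ± 27.2, 54.6 ± 8.10, 41.8 ± 19.0, 24.2 ± 12.03, 19.8 ± 9.11, 17.5 ± 5.35, 14.4 ± 7.86 and 14.1 ± 5.54 CPM per kb (SD, n = 4). Slc3a2 did not overlap Slc7a7 in any library, whereas the ranges of each later neighbouring pair overlapped.

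Whether members varied between libraries more than other genes of their level was tested with edgeR, by setting each gene's dispersion against the trend over 9075 genes. No member passed at an adjusted p of 0.05, and no gene did (0% of those tested). At an unadjusted p of 0.05 it was 395 genes, or 4.35%, and DESeq2 marked no gene as a dispersion outlier. Of the 18 members tested, 1 had an unadjusted p below 0.05, Slc1a3, whose dispersion was 2.92 on the log2 scale above the trend. Its adjusted p was 0.94 in the edgeR quasi-likelihood fit, with 0.826 to 0.997 over the alternatives. Without replicate 4 that value was -0.83. The test had little power with 4 libraries. On simulated counts for the 9075 genes, 0 of 60 genes changed 4-fold in 2 libraries were called. It was 30 of 70 at 16-fold and 53 of 70 at 64-fold. Whether these shares hold for the real libraries was not tested. In the real libraries none of the 10 immediate early genes passed at an adjusted p of 0.05. Of these, Fosb had 56, 7405, 3519 and 127 counts in replicates 1 to 4 and an adjusted p of 0.94 in the edgeR fit.

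The members fell on both sides of the trend, 10 above and 8 below, with a median of 0.79 on the log2 scale against -0.09 over all genes tested. Below it lay Slc38a9 at -5.75, Slc7a7 at -2.78, Slc7a5 at -2.33 and Slc7a6 at -2.09. Above it, next to Slc1a3, lay Slc38a10 at 2.56, Slc1a5 at 2.53 and Slc6a6 at 2.07. Replicate 4 held the lowest value for 8 of the 17 members averaging 10 CPM or above, and for 37.7% of all genes at that level. Replicate 2 held the highest value for 8 of the 17, and for 20.7% of all such genes.

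**Figure D4:**
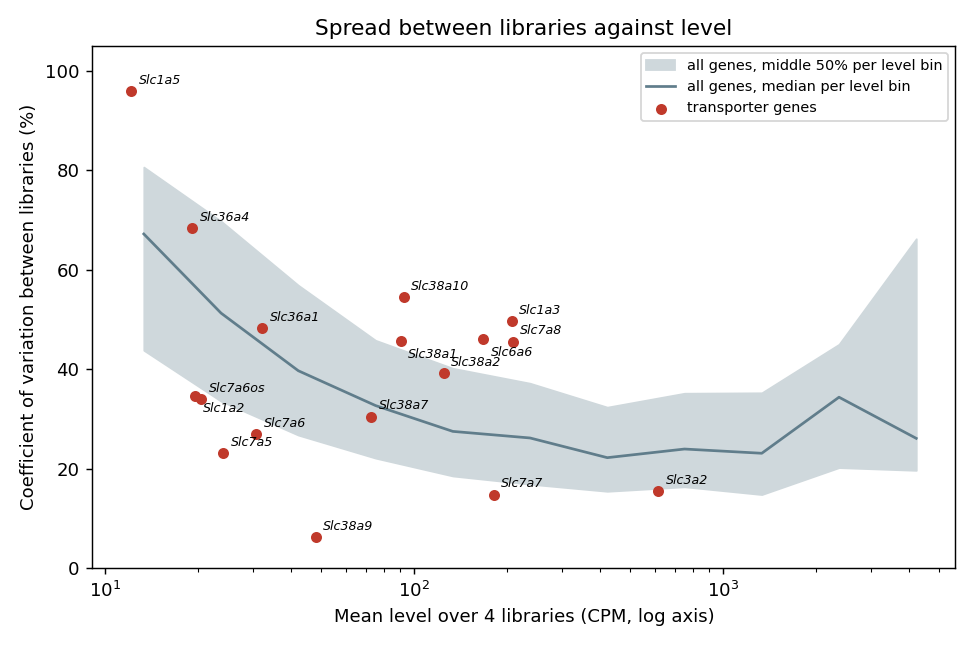
Coefficient of variation between libraries, in percent, against mean level in CPM on a log axis, for the 17 members whose mean is at least 10 CPM (points). The line and band are the median and the middle 50% of all genes in bins of level. Against the bin of its own level, Slc38a9, Slc7a7, Slc7a5, Slc7a6 and Slc3a2 lie below the middle 50%, and Slc1a5, Slc38a10, Slc1a3, Slc7a8 and Slc6a6 lie above it.

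Low members tended to be present in some libraries and absent from others. Of the 39 members with over 3 counts in any library, 19 (48.7%) had over 3 in all 4, against 61.3% of protein-coding genes, and 7 (17.9%) had over 3 in a single library, against 11.5%. Members with a count numbered 29, 34, 36 and 31 in replicates 1 to 4, or 45.3%, 53.1%, 56.25% and 48.4% of the members. Of all protein-coding rows, 51.0%, 61.6%, 60.1% and 48.5% had a count in the same libraries, also fewer in replicates 1 and 4. In replicate 4, 8 of its 31 (25.8%) had only 1 to 3 counts, against 17.7% of all genes with a count there. In replicates 1 to 3 that number was 3, 1 and 0, or 10.3%, 2.94% and 0%, against 11.7%, 10.7% and 10.6% of all genes with a count. Without replicate 4, 25 members reached 1 CPM in every library instead of 17. The same count over all genes is not given here. The genes that passed the edgeR filter also rose without replicate 4, from 9075 to 11259, and the members among them from 18 to 26.

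Promoter sequences were read for motifs of regulators known to act on such genes. Of the 64 members, 47 matched the RefSeq table of windows from 250 bases before to 50 after a gene's start, in GRCm38.p6. The counts given cover those 47 only and not the families as a whole. The amino acid response motif TGATGNAAN, bound by ATF4 with C/EBP factors, was searched on both strands. It occurs in 3.95% of all such windows and for 4.50% of genes with a window. Of the 47 members, 4 had it, Slc7a11, Slc1a4, Slc7a7 and Slc6a21. The TCACGTG core of the lysosomal gene motif bound by TFEB occurs in 3.77% of windows and for 4.29% of genes. It occurs in the windows of Slc36a1, Slc38a7, Slc7a14 and Slc1a6. Its palindrome TCACGTGA occurs in 0.974% of windows, for 1.12% of genes, and in that of Slc36a1. The NRF2-type motif TGACNNNGC is more common, in 12.4% of windows and for 14.0% of genes, and occurs in those of 9 of the 47 members. The windows of Slc7a11 and Slc1a4, for the response to amino acid shortage, and of Slc36a1 and Slc38a7, for lysosomal carriers, are shown from 150 bases before to 10 after the start, with matches to the first 2 kinds of motif, amino acid response and TCACGTG, in capitals. The Slc7a11 window, chr3:50443604-50443763 on the minus strand, holds 2 amino acid response matches in opposite orientation, beginning 66 and 48 bases before the start.
Slc7a11: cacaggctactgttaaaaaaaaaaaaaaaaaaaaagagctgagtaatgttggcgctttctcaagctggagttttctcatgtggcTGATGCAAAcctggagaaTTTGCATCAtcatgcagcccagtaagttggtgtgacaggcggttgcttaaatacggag
The Slc1a4 window, chr11:20332704-20332863 on the minus strand, has its match across the start.
Slc1a4: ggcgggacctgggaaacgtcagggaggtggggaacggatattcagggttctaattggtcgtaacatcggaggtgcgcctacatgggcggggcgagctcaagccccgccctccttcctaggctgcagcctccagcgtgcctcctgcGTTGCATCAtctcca
The Slc36a1 window, chr11:55204190-55204349 on the plus strand, holds a TCACGTG match on the opposite strand 31 bases before the start and the palindrome across the start, whose 2 strands each give a match. An NRF2-type match, TGACAGGGC, overlaps the end of that palindrome and is not set in capitals as a whole.
Slc36a1: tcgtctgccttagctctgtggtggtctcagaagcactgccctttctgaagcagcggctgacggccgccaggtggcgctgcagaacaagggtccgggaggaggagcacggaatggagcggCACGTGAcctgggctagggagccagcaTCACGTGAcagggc
The Slc38a7 window, chr8:95853482-95853641 on the minus strand, holds 1 match, 35 bases before the start.
Slc38a7: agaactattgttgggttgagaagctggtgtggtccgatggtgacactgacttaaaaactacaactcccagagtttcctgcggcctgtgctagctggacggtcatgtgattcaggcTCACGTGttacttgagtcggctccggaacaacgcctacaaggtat
A match describes letters only, and binding was not measured. The members shown differed in level, from 4.22 ± 4.13 CPM for Slc7a11 and 4.04 ± 2.77 CPM for Slc1a4 to 32.2 ± 15.6 CPM for Slc36a1 and 72.7 ± 22.2 CPM for Slc38a7 (SD, n = 4).

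Genes that act with the carriers were read from lists outside the families, against a background of 35.5% of protein-coding rows at 1 CPM in every library and 26.1% at 10 CPM. Of 15 enzymes of glutamate, glutamine and glutathione, 9 were at 1 CPM or above throughout and 7 of them at 10 CPM or above. Glul, which makes glutamine from glutamate and is known from astrocytes and macrophages, gave 340, 827, 1035 and 317 CPM, with replicates 2 and 3 above replicates 1 and 4. Glud1, which oxidises glutamate, gave 53.0, 138, 139 and 263 CPM, with replicate 1 the lowest and replicate 4 the highest. Gclc, the catalytic subunit of the first step of glutathione synthesis, gave 31.0, 7.66 and 10.2 CPM in replicates 1 to 3 and 2 counts in replicate 4.

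Of 26 genes of amino acid sensing by mTORC1, 17 reached 1 CPM in every library and 14 reached 10 CPM. The leucine sensor family gene Sesn1 stood at 239 ± 95.1 CPM, the folliculin gene Flcn at 189 ± 42.2 and the GTPase gene Rheb at 161 ± 54.4 CPM (SD, n = 4). Of 13 genes of the amino acid shortage response, 11 were at 1 CPM or above throughout and 9 of them at 10 CPM or above. Atf4 itself gave 140, 181, 138 and 83.4 CPM, Phgdh, which starts serine synthesis, 183, 111, 108 and 269 CPM, and Asns, which makes asparagine, 6.99, 2.79, 3.43 and 22.5 CPM. Atf3, which also responds early to stimuli, gave 129, 3175, 2786 and 134 CPM. Of 15 other amino acid or peptide transporters, 8 were at 1 CPM or above throughout and 6 of them at 10 CPM or above, led by the lysosomal carriers Slc15a4 at 83.6 ± 19.0 and Ctns at 80.2 ± 8.43 CPM and by Slc15a3 at 47.6 ± 20.3 CPM. The vesicular glutamate carriers Slc17a6 and Slc17a8 and the vesicular GABA carrier Slc32a1 had no count, and the vesicular glutamate carrier Slc17a7 had 10 counts in replicate 3 and none in the others. No gene of these 4 lists passed the edgeR dispersion test at an adjusted p of 0.05, and 3 had an unadjusted p below 0.05, which were Glul, Atf3 and Cebpb.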

How the data were processed

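The authors deposited 1 file per library with unnormalized read counts by gene symbol. Per the submitters' processing notes the tools were HTSeq 0.11.2, SAMtools 1.16.1 and STAR 2.7.10a, and the build was GRCm39. Annotation, strand setting and filters were not given in the sources used here. The 5 closing rows for unassigned reads, 20.8% ± 1.28 of those listed (SD, n = 4), were left out. CPM used the total assigned to genes. Exon lengths were unions of exons in GENCODE M21 (GRCm38), matched by symbol for 64 of 64 members.

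Dispersion was tested with edgeR 4.0.16 in R 4.3.3, with filterByExpr (minimum count 10), TMM scaling, a quasi-likelihood fit with an intercept alone, an upper-tail F test against the trend and Benjamini-Hochberg adjustment. DESeq2 1.42.0 gave alternative size factors and dispersion outliers. Pairs were tested by an exact sign-flip permutation test. Python 3.11.15 did the rest. The alternatives were other detection levels, scalings, filters, pseudocounts and lengths and leaving out each replicate. The longest transcript length and the sum of light subunits were added after seeing the data. The dispersion test was tested on simulated data. Members and lists were chosen with earlier results of these data known. Named with library values were members at a mean of 10 CPM, passing the test or in a pair, and otherwise the highest of each role group. Others named singly were chosen after their values were seen. Values of 1 member and of 1 listed enzyme are not reported here, and both remain in the counts.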

Additional observations from a re-analysis of the deposited data

How the results depend on the processing

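The counts of members at 1 CPM (17) and 10 CPM (15) in every library stayed within 1.5-fold under each alternative, with 15 to 18 and 14 to 15 under other levels and scalings and 17 to 25 and 15 to 16 without 1 replicate. TMM scaling shifted replicate 4 by -0.11 on the log2 scale. The median member level rose from 1.21 to 22.3 CPM over members with a count in every library, by construction. No gene passed the dispersion test under any alternative run. The dispersion of single members changed its side of the trend in some settings. DESeq2 sets a different dispersion estimate against its own trend, over genes with a count in any library. Its values are therefore not on the edgeR scale. They were -0.78 for Slc7a8, -0.76 for Slc6a6, -0.74 for Slc38a2 and -0.78 for Slc38a1. For Slc36a1, Slc38a6 and Slc7a1 they were -0.43, -1.71 and -1.27. With edgeR and no filter the dispersion was -1.74 for Slc38a6 and -1.25 for Slc7a1. Leaving out 1 replicate gave ranges of -0.83 to 3.55 for Slc1a3, -1.40 to 1.87 for Slc36a1, -3.10 to 0.12 for Slc1a2 and -2.38 to 2.11 for Slc7a1, each with its change of side without replicate 4. It gave -1.08 to 2.96 for Slc38a2, negative without replicate 1, and -0.71 to 1.47 for Slc38a6, negative without replicate 2 and, at -0.18, without replicate 3. Slc7a8 over Slc7a7 was 0.11 with no length correction, against -0.49, and the other 11 pairs kept their mean order under each alternative. The cause was not tested. No paired analysis was possible because the libraries form 1 group. At these depths, a count of 0 does not exclude a level of up to 0.129 to 0.147 CPM.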
